A study of Mus musculus with 2 samples.

Results

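Mir132, Mir212, Mir455, Mir872 and Mir202 are microRNA hairpin genes that have been reported as regulated by adrenocorticotropic hormone (ACTH) or as acting on steroid production. These 5 genes were taken by name from the 2202 annotated microRNA genes counted in the adrenal gland. The rule used no measured value, but the hairpins were chosen with earlier results of these data known. The mice were males of the strain B6CASTF1/J, a cross of C57BL/6J with CAST/EiJ, and were 25 days old. There was 1 group of 2 libraries, numbered as biological replicates 1 and 2 in the labels, which name a separate animal sample for each but give both the same donor entry. The labels name no ACTH, stress or other treatment, so the values describe levels in 1 condition and how far the libraries differ, which may be a technical spread.

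ACTH from the pituitary acts on cortical cells through cyclic AMP and protein kinase A, raises the delivery of cholesterol to mitochondria by the protein StAR, and drives glucocorticoid synthesis. Mir132 and Mir212 are made from 1 primary transcript whose promoter is a classic target of the cyclic AMP-responsive factor CREB, and miR-132 has been reported to lower StAR in adrenal cells. miR-455 has been reported to act on SR-B1, the receptor through which rodent cortical cells take up cholesterol esters from high-density lipoprotein. miR-202 is best known from the gonads, the other steroid-producing organs. A microRNA recognises its targets mainly through the seed, bases 2 to 8 from its 5′ end.

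The mature sequences are shown because microRNAs that share a seed can act on the same target sites. Each is written 5′ to 3′ from RefSeq (GRCm38.p6), which holds mature products of all 5 hairpins, with the seed in capitals.
miR-132-3p: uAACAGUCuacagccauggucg
miR-212-3p: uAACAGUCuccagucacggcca
miR-132-5p: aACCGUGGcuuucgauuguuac
miR-212-5p: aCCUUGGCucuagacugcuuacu
miR-455-3p: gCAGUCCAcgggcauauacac
miR-455-5p: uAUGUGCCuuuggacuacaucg
miR-872-3p: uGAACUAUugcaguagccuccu
miR-872-5p: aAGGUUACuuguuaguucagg
miR-202-3p: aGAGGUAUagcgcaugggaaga
miR-202-5p: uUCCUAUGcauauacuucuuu
The 3p products of Mir132 and Mir212 carry the same seed and match at 17 of 22 positions, counted from the 5′ end without gaps. No other annotated mouse microRNA in the RefSeq table has that seed. Their 5p products have different seeds. The counts are per hairpin, so the 3p and 5p products of a hairpin were not measured separately.

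All 5 hairpins were detected, meaning at least 10 counts in both libraries, as were 352 of the 2202 genes. Replicate 1 had 3588361 counts on the sense strand of microRNA genes and replicate 2 had 4541373. Levels are given as counts per 1000000 of these (CPM), and a count of 0 allowed up to 0.836 and 0.661 CPM. Reads carried no molecular identifiers in the tables, so copies of a molecule cannot be told from separate molecules, and the intervals and floors allow for counting error alone. The libraries differed in hairpins of other organs: the liver hairpin Mir122 held 0.0892% of the counts in replicate 1 and 19.8% in replicate 2, and the skeletal muscle hairpin Mir206 had 3540 and 3 counts. The other 5 striated muscle hairpins listed had at most 13 counts in replicate 1 and 0 in replicate 2. Each has 20 or more bases in common with a further annotated hairpin. Multiply mapped reads are assigned to no gene, so those counts may be too low. Mir375, an endocrine hairpin, stood at 33380 and 29004 CPM. Because Mir122 takes up so much of replicate 2, ratios between the libraries are also given with Mir122 left out of both totals. Other liver hairpins listed were also higher in replicate 2. Mir194-2 stood at 37.6 and 789 CPM, Mir192 at 19.5 and 569 CPM, and Mir802 had 1 and 270 counts. These stay in those totals, as would any liver reads on further hairpins, so the ratios are not corrected for liver reads.

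The steroid-related hairpins were a small part of the adrenal pool. Together they held 0.289% of the counts in replicate 1 and 0.313% in replicate 2, or 0.301% ± 0.0168 (SD, n = 2). They fell into a higher and a lower set. Mir455, Mir872 and Mir132 lay between 530.2 and 1588 CPM in every library, above the median detected gene at 110.7 CPM. Mir212 and Mir202 lay between 14.2 and 43.4 CPM, below it. The median of the 5 mean levels was 675 CPM.

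**Figure D1:**
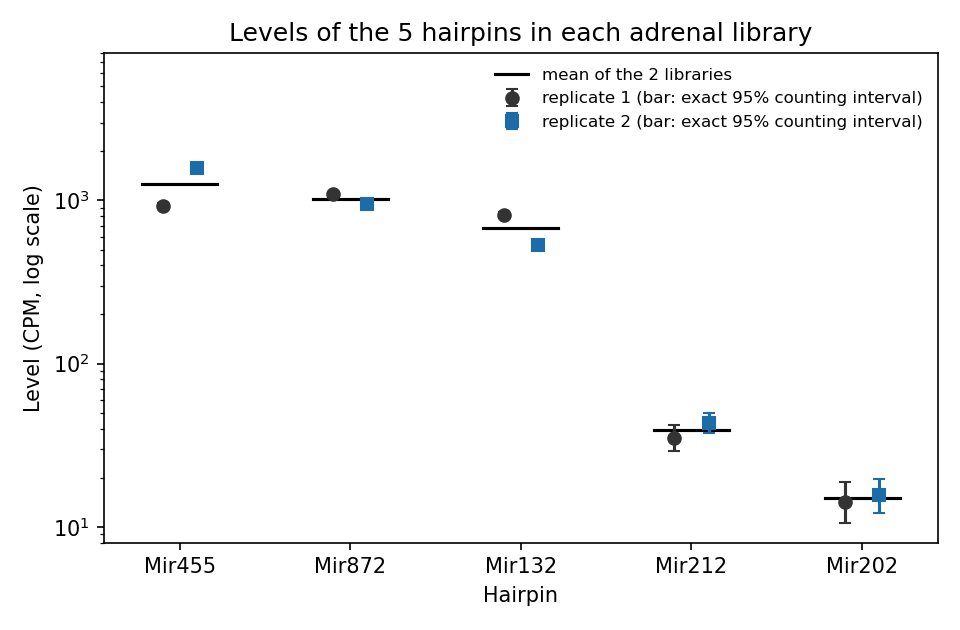
Level of each hairpin (x axis) in CPM on a log scale (y axis), with circles for replicate 1, squares for replicate 2, bars for exact 95% counting intervals and a black line for the mean. Mir455, Mir872 and Mir132 sit at 530.2 CPM or above in both libraries, and Mir212 and Mir202 at 43.4 CPM or below.

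Mir132 (ENSMUSG00000065537.2), the cyclic AMP-responsive hairpin linked to StAR, was the leading hairpin of its cluster. It lies on chromosome 11 (mm10, 75173682 to 75173747, plus strand) in an intron of the noncoding gene 1700016P03Rik. It had 2939 counts in replicate 1 and 2408 in replicate 2, which gave 819 CPM (790 to 849, exact 95% interval) and 530.2 CPM (509 to 552). The mean was 675 CPM ± 204 (SD, n = 2), and 73.3% of detected genes had a lower mean. Replicate 1 was the higher library, and the intervals did not overlap.

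Mir212 (ENSMUSG00000065590.1), its partner, lies upstream in the same intron (75173388 to 75173478), with 203 bases between the hairpins. It had 126 counts in replicate 1 and 197 in replicate 2, or 35.1 CPM (29.3 to 41.8) and 43.4 CPM (37.5 to 49.9). The mean was 39.2 CPM ± 5.84 (SD, n = 2), above 34.9% of detected genes. Here replicate 2 was the higher library, but the intervals overlapped.

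Within the cluster, Mir132 outnumbered Mir212 in both libraries, by 23.3 to 1 in replicate 1 (19.5 to 28.1) and by 12.2 to 1 in replicate 2 (10.6 to 14.2). This ratio is taken within a library and does not depend on any total. It differed between the libraries by 1.91-fold (Fisher's exact test on the counts, two-sided, p = 2.8e-08), a test that compares these libraries and no conditions. Among all 61776 pairs of detected genes, 62.8% changed their ratio by less than this pair did. Among 387 pairs of detected same-strand hairpins at most 10 kb apart, 269 changed by less and 117 by more. A shift at least as large was thus seen in many other pairs of neighbouring hairpins. Per 100 bases of annotated hairpin the means were 1022 CPM for Mir132 and 43.1 CPM for Mir212. Their mature products are 22 or 23 bases long, so counts need not scale with hairpin length and this is no check on the order.

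The pair can also be read through the seed that the 3p products share. Mir132 supplied 95.9% of the counts of the 2 hairpins in replicate 1 (95.1 to 96.6) and 92.4% in replicate 2 (91.4 to 93.4). Summed, they stood at 854 and 574 CPM. These shares include 5p reads, whose seeds differ, since arms were not counted apart.

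Mir455 (ENSMUSG00000070102.1), the hairpin linked to the lipoprotein receptor SR-B1, had the highest mean of the 5 hairpins. It lies on chromosome 4 (63256851 to 63256932, plus strand) in an intron of Col27a1, a gene for a fibrillar collagen of cartilage. It had 3331 counts in replicate 1 and 7211 in replicate 2, or 928 CPM (897 to 960.3) and 1588 CPM (1551 to 1625). The mean was 1258 CPM ± 466 (SD, n = 2), above 81.5% of detected genes. Replicate 2 was the higher library, with no overlap of the intervals. Mir140, a hairpin known from cartilage, went the other way, at 3710 CPM in replicate 1 against 1181 CPM in replicate 2. It was the only cartilage marker listed, and the part of such cells in the Mir455 level was not tested. The seed of miR-455-5p recurs in Mir5129, at 2.23 and 2.20 CPM and under 10 counts in replicate 1, and that of miR-455-3p in no other entry of the RefSeq table.

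Mir872 (ENSMUSG00000077921.1) was the second most abundant of the hairpins. It lies on the same chromosome as Mir455 (94665157 to 94665237, plus strand), in an intron of Ift74, which encodes a part of the machinery that carries cargo along cilia. It had 3918 counts in replicate 1 and 4311 in replicate 2, or 1092 CPM (1058 to 1127) and 949 CPM (921 to 978). The mean was 1021 CPM ± 101 (SD, n = 2), above 80.1% of detected genes. Replicate 1 was slightly the higher library on this scale. Neither of its seeds occurs in another entry of the RefSeq table, although bases 2 to 7 of miR-872-5p also occur in miR-154-5p, whose hairpin Mir154 had 514 and 691 CPM.

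Mir202 (ENSMUSG00000065502.1), the gonadal hairpin, was the lowest of the 5 hairpins. It lies on chromosome 7 (139957689 to 139957760, minus strand) within an exon of the noncoding gene Gm2044, and in an intron of Gm16201 on the opposite strand. It had 51 counts in replicate 1 and 71 in replicate 2, or 14.2 CPM (10.6 to 18.7) and 15.6 CPM (12.2 to 19.7). The mean was 14.9 CPM ± 1.01 (SD, n = 2), above 23.3% of detected genes. The libraries overlapped, and both values were well above the floor that a count of 0 allows. The hairpin annotated 67 bases from it on the same strand, mmu-mir-7686, had 0 counts in both libraries.

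Markers of testis and germ cells were looked at beside Mir202, since the gonads are where it is best known. Of 16 such hairpins 4 were detected and 9 had 0 counts in both libraries, among them Mir741, Mir743, Mir871 and Mir880. Mir34c led at 2505 CPM in replicate 1 and 1203 CPM in replicate 2, and Mir547, of the X-linked testis cluster, had 10.6 and 8.81 CPM. The list summed to 0.268% of the counts in replicate 1 and 0.137% in replicate 2, and that difference came from Mir34c. Without Mir34c the other 15 summed to 173 and 166 CPM. The part of such cells in the Mir202 level was not tested. In bulk tissue, a smaller number of cells of a type cannot be told apart from less RNA per cell.

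The seed of miR-202-3p differs from that of most let-7 microRNAs only in its last base, so bases 2 to 7 are shared with 14 other hairpins in the RefSeq table, 12 of them detected. All but Mir1961 are annotated as let-7 or miR-98 hairpins. Mirlet7a-2, by its name a copy of Mirlet7a-1, stood at 154 and 156 CPM. It had no such match in the RefSeq table, so it is outside these counts and the sum. The let-7 family is best known for holding back growth and for marking differentiated tissue. Those 14 hairpins summed to 239456 CPM in replicate 1 and 201558 CPM in replicate 2, which was 16848 and 12892 times the Mir202 level. Mirlet7c-1 and Mirlet7c-2 hold the same 5p product, as do Mirlet7f-1 and Mirlet7f-2, and by name Mirlet7a-1 and Mirlet7a-2. Multiply mapped reads are assigned to no gene. The levels of these copies can thus be too low, and with them the sum and its ratio to Mir202. Over bases 2 to 8, Mir7j, annotated as the hairpin of let-7j, was the only match, at 53.8 and 48.9 CPM. Mir202 thus lay below every detected hairpin that shares those bases.

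**Figure D2:**
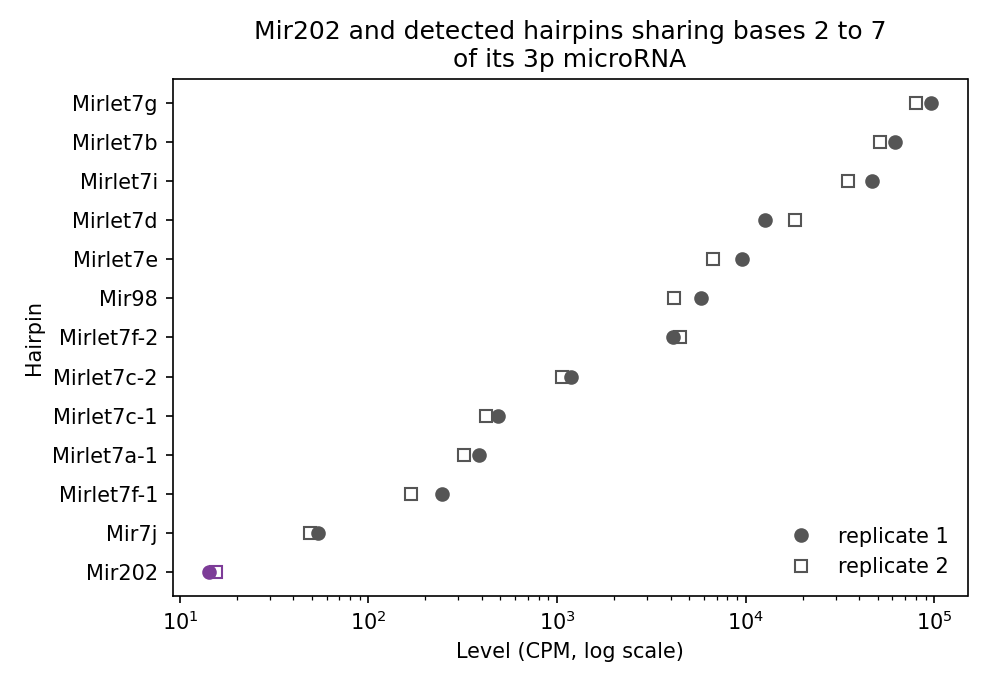
Level in CPM on a log scale (x axis) of Mir202 (purple) and of 12 detected hairpins (grey, y axis), with filled circles for replicate 1 and open squares for replicate 2. The 12 are those whose mature microRNA in the RefSeq table shares bases 2 to 7 with miR-202-3p. Mirlet7a-2 had no such match there and is not shown. Mir202 is lowest at 14.2 and 15.6 CPM, next to Mir7j at 53.8 and 48.9 CPM.

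By mean level the order was Mir455, Mir872, Mir132, Mir212 and Mir202. It was the same per 100 bases of hairpin (1534, 1260, 1022, 43.1 and 20.7 CPM), although counts need not scale with hairpin length. Mir455 and Mir872 were not separated beyond their spread: Mir455 stood at 0.850 of the Mir872 level in replicate 1 and at 1.67 times that level in replicate 2. The library ranges of Mir872 and Mir132 did not overlap, at 949 to 1092 and 530.2 to 819 CPM. Mir132 and Mir212 were the widest step, and Mir212 stood 2.63 times above Mir202 in the mean, with ranges apart.

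Hairpins of closest abundance were found by the difference in log2(mean CPM + 1) over the 2 libraries. Those next above were Mir221 for Mir132, Mir1249 for Mir212, Mir337 for Mir455, Mir615 for Mir872 and Mir450-1 for Mir202. Those next below were Mir214, Mir184, Mirlet7c-2, Mir676 and Mir8114, in the same order. Mir214 had a mean of 668 CPM close to that of Mir132, but stood at 248 and 1088 CPM in replicates 1 and 2, a far wider spread. Mir8114 was close to Mir202 in each library, at 14.2 and 15.2 CPM.

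Between the libraries, Mir455 was higher in replicate 2, Mir132 and Mir872 were higher in replicate 1, and Mir212 and Mir202 did not pass the test. The counts of each detected gene were compared against the library totals by an exact two-sided binomial test, with Benjamini-Hochberg adjustment over all 352 genes and a threshold of 0.05. It called 67.0% of all detected genes, 30.4% as higher in replicate 2 and 36.6% as higher in replicate 1. Of the 5 hairpins, 1 was called higher in replicate 2 and 2 in replicate 1, a share near that background. The median log2 ratio of replicate 2 over replicate 1, with a pseudocount of 1 CPM, was 0.13 for the 5 hairpins and -0.04 for all detected genes.

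Mir455 was 1.71-fold higher in replicate 2 (1.64 to 1.78, exact 95% interval), with an adjusted binomial p of 4.3e-152. With Mir122 left out of the totals it was 2.13-fold higher (2.04 to 2.22). Mir132 was 1.54-fold higher in replicate 1 (1.46 to 1.63, adjusted binomial p = 4.9e-56), and 1.24-fold (1.18 to 1.31) with Mir122 left out. Both kept their direction under every total tried. Both differed by more than the typical gene, whose absolute log2 ratio had a median of 0.43: 74.1% of detected genes had a smaller absolute log2 ratio than Mir455, and 65.9% a smaller one than Mir132.

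Mir872 was the hairpin whose direction turned with the total. It was 1.15-fold higher in replicate 1 (1.10 to 1.20, adjusted binomial p = 6.5e-10), but 1.08-fold higher in replicate 2 (1.04 to 1.13, adjusted p = 0.00057) with Mir122 left out. That change of total moved the median log2 ratio of all detected genes from -0.04 to 0.27. Relative to the median gene, Mir872 stood at -0.16 on the log2 scale.

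Mir212 was 1.24-fold higher in replicate 2 (0.983 to 1.56, adjusted binomial p = 0.092), and with Mir122 left out it passed at 1.54-fold (1.22 to 1.94, adjusted p = 0.00025). Mir202 was 1.10-fold higher in replicate 2 (0.757 to 1.61, adjusted binomial p = 0.74), and 1.37-fold (0.942 to 2.00, adjusted p = 0.11) with Mir122 left out. At the depth of Mir202 a difference within those bounds could not be resolved. The cluster partners Mir132 and Mir212 thus lay on opposite sides of an even ratio under each total.

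**Figure D3:**
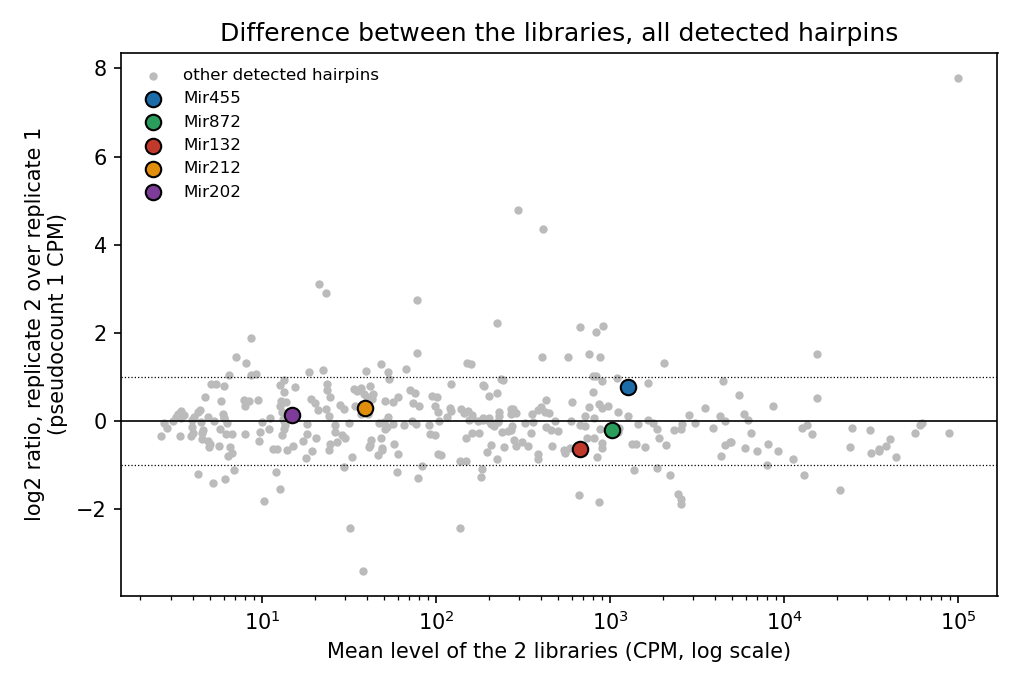
The log2 ratio of replicate 2 over replicate 1 (y axis, pseudocount 1 CPM) against the mean level in CPM on a log scale (x axis) for the 352 detected genes, with the 5 hairpins in colour and dotted lines at 2-fold. All 5 hairpins lie inside the dotted lines, from -0.63 for Mir132 to 0.77 for Mir455, among most other genes.

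**Figure D4:**
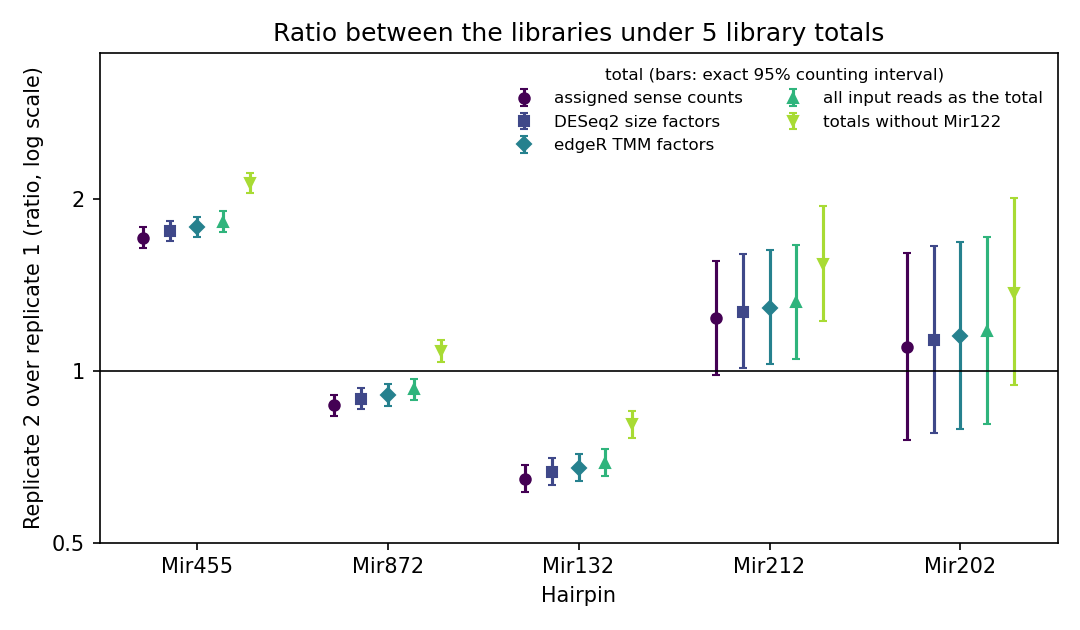
Ratio of replicate 2 over replicate 1 (y axis, log scale) for each hairpin (x axis) under 5 choices of library total, with exact 95% counting intervals as bars. Mir455 stays above 1 and Mir132 below 1, while Mir872 crosses from 0.869 to 1.08 when Mir122 is left out of the totals.

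Ratios between the 5 hairpins within a library need no total. Of the 10 pairs, 6 had exact intervals in replicates 1 and 2 that did not overlap, as did 52.4% of all 61776 pairs of detected genes, a share close to that of the 5 hairpins. The pair that shifted most was Mir132 to Mir455, at 0.882 (0.839 to 0.927) in replicate 1 and 0.334 (0.319 to 0.350) in replicate 2, a 2.64-fold change. Of all pairs of detected genes, 79.2% shifted by less. Mir212 and Mir202 kept the closest ratio, 2.47 (1.77 to 3.49) and 2.77 (2.11 to 3.69). The pair on chromosome 4, Mir455 and Mir872, shifted by 1.97-fold.

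Mir132 and Mir212 are also known from neurons, where activity drives CREB, so neuronal hairpins were looked at beside them. Of 11 such hairpins 5 were detected and 5 had 0 counts in both libraries, namely the copies of Mir124a together with Mir9-1 and Mir9-2. All but Mir137 have 20 or more bases in common with a further annotated hairpin, and the tables assign no multiply mapped read to a gene, so a 0 sets no limit there. Mir137 stood at 659.6 CPM in replicate 1 against 419 CPM in replicate 2. Of the 5 detected, 3 were called higher in replicate 1 and none in replicate 2, beside 36.6% and 30.4% of all detected genes. The same numbers were called with Mir122 left out of the totals, where all detected genes gave 75 and 176 in that order. The list summed to 0.0815% and 0.0535% of the counts, mostly from Mir137. The sum was lower in replicate 2, as was Mir132, and the part of the list in the Mir132 difference was not tested.

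Other hairpins reported as ACTH-regulated in rodent adrenals were all detected, 9 of 9. Between the libraries 4 were called higher in replicate 2, 3 higher in replicate 1 and 2 were not called, where 67.0% of all detected genes were called, and the median log2 ratio was 0.19 against -0.04 for all detected genes. Leaving Mir122 out of the totals gave 7 calls higher in replicate 2 and 2 higher in replicate 1, where all detected genes gave 176 and 75. The highest was Mir433 at 1858 CPM ± 165, and Mir27a followed at 758 CPM ± 120 (SD, n = 2). Mir96, at 12.7 CPM ± 2.24, was the only one of the 9 below Mir202. Mir142, at 1010 and 317 CPM, is a blood cell hairpin, and Mir214 is known from fibroblasts. Of the 9, 3 have 20 or more bases in common with another annotated hairpin, Mir27a and Mir142 among them, so their levels may be too low.

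A further 13 hairpins reported to act on steroid synthesis or cholesterol uptake were also all detected, and most of their counts came from a few. Mir378a led at 60419 CPM ± 2731 (SD, n = 2), followed by Mir10b, Mir21a and Mir125a, which has been reported to act on SR-B1 like miR-455. Mir125a stood at 3093 CPM in replicate 1 against 5781 CPM in replicate 2. Mir185 and Mir223, also reported to act on SR-B1, were called higher in replicate 1, at 747 against 693 CPM and 255 against 105 CPM, although Mir185 turned to the other direction with Mir122 left out of the totals. Of the 13, 3 were called higher in replicate 2, 8 higher in replicate 1 and 2 not called, with a median log2 ratio of -0.11, beside 30.4% and 36.6% called and a median of -0.04 over all detected genes. With Mir122 left out of the totals the calls were 7 and 5, and 176 and 75 over all detected genes. The list held 11.9% and 8.61% of the counts, against 0.289% and 0.313% for the 5 hairpins. Of the 13, 5 have 20 or more bases in common with another annotated hairpin, Mir378a among them. Multiply mapped reads are assigned to no gene, so levels of these 5, their order in the list and its share may be affected.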

How the data were processed

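MicroRNA sequencing of total RNA from adrenal gland gave 2 libraries of 1 group. The deposited values are raw counts of reads per microRNA gene, which the authors produced on the mm10 assembly using GENCODE M21, as the text files deposited beside the tables state. How reads were trimmed and aligned is not given in the sources used here. The tables have 3 count columns each, for either, sense and antisense strand, as judged from their values, and 4 summary lines, which were left out. Sense counts were used. Antisense counts were 0 at all 5 hairpins, and none shares 20 bases with another annotated hairpin, while copies elsewhere in the genome were not searched for.

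Levels are CPM of assigned sense counts. A design with 1 group has no contrast for edgeR's quasi-likelihood test, so libraries were compared by an exact binomial test, checked on simulated data. The simulated counts held counting error alone, so that check does not cover further spread between replicate libraries. Intervals are exact (Clopper-Pearson). All 2202 identifiers matched GENCODE M21, which gave names, positions and host genes. Alternatives were edgeR 4.0.16 TMM factors, DESeq2 1.42.0 size factors, other totals, count minimums, pseudocounts, the either-strand column and each library left out. The ratios between pairs other than Mir132 and Mir212, and the tallies of pairs, were added after the data were seen. The hairpins and lists were chosen with earlier results of these data known. Named genes were the 5 hairpins, their nearest hairpins in mean level, seed and position, and at most 4 genes leading each list by mean level, with Mir122 for the totals. Mir741, Mir743, Mir871, Mir880, Mir96, Mir185, Mir223 and Mirlet7a-2 were named after their values were seen. So were the neuronal hairpins at 0 and the hairpins matching bases 2 to 7. Python 3.11.15, scipy 1.17.1 and R 4.3.3 were used.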

Additional observations from a re-analysis of the deposited data

How the results depend on the processing

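The mean share of the counts held by the 5 hairpins was 0.301%, and it moved by more than the SD to 0.339% with Mir122 out of the totals, 0.129% of all input reads and 0.357% in the either-strand column. Each library alone gave 0.289% to 0.313%, and a Mir132 to Mir212 ratio of 12.2 to 23.3. The log2 ratio of Mir872 turned from -0.20 to 0.11 with Mir122 out of the totals. Mir212 passed the threshold with Mir122 out of the totals, with all input reads and with TMM factors. Mir132 and Mir455 kept direction and call under all totals, the either-strand column and both pseudocounts. Genes called numbered 236 of 352 tested, or 67.0%. Of these 45.3% were higher in replicate 2, and 70.1% (176 against 75) with Mir122 out of the totals. Under the alternatives 208 to 251 genes were called. The share called ran from 32.7% of 749 genes without a count minimum to 77.9% of 267 with at least 50 counts. Members called were 4 of 5 with Mir122 out of the totals, all input reads or TMM factors, and 3 otherwise. In those settings 71.3%, 65.9% and 67.3% of tested genes were called. No paired analysis was possible because there is 1 group.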
